A study of Mus musculus with 12 samples.

Results

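Lung tissue of mice given lipopolysaccharide together with bovine lactoferrin (LPS+bLF) was compared with lung tissue of mice given lipopolysaccharide alone (LPS). The comparison takes in 6 of the 12 libraries of the series, 3 LPS+bLF and 3 LPS, chosen by the title and treatment labels, and each library comes from a separate mouse. All mice were male BALB/c, 6 to 8 weeks old and 20 g, from 24 animals in 4 groups of 6, of which 3 per group were sequenced after 14 days. LPS was given as 50 µL at 1 µg/µL and bLF at 200 mg/kg per day, so both compared groups carry LPS and differ in bLF. An untreated control group and a bLF-alone group, with 3 libraries each, entered the shared estimate of spread and a separate comparison of bLF without LPS. The labels state neither the route nor the day of the LPS, and the treatment label of the combined group reads "LBS+BLF" where its titles read LPSBLF.

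LPS is the outer-membrane glycolipid of Gram-negative bacteria. CD14 binds it and TLR4 senses it on macrophages and other cells, and the response includes cytokines, interferon-driven genes and the arrival of blood leukocytes. Lactoferrin is an iron-binding glycoprotein of milk and of neutrophil granules that binds LPS and several cell-surface proteins, among them LRP1, intelectin, nucleolin and the asialoglycoprotein receptor. Alveolar macrophages in the airspace and monocyte-derived and interstitial macrophages in lung tissue take up bacterial products. MHC class I molecules display peptides to T cells and act as ligands of receptors on natural killer (NK) cells.

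All 6 libraries carried lung transcripts. Surfactant protein C (Sftpc) was at 43000 to 166276 FPKM (read fragments divided by the length of the gene and the depth of the library), and club-cell secretoglobin (Scgb1a1) was at 68089 to 287133 FPKM. Total counts were 16714327 to 17820645 per library. LPS mouse 1 stood apart, with 3067 of 17920 genes at a count of 0 against 1499 to 1963 in the other 11 libraries, and a median correlation of 0.92 with them. LPS+bLF mouse 2 carried fat transcripts, with a summed level over the fat list of 27826 FPKM against 82.6 to 452 FPKM in the other 5 libraries. LPS+bLF mouse 3 carried skeletal muscle transcripts, with a summed level of 7205 FPKM against 14.4 to 219 FPKM in the other 5. Its summed level over the keratin and squamous epithelium list was 355 FPKM against 1.75 to 25.3 FPKM in the other 5. In bulk tissue, fewer cells of a type and less RNA per cell cannot be told apart.

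The promoters of 6 genes on which the description turns are shown as the 250 bases before the start site in RefSeq GRCm38.p6, 5′ to 3′ on the strand of the gene. They are 3 class I genes, an Fc receptor gene, the cathepsin S gene and the asialoglycoprotein receptor gene Asgr1. The windows lie at chr17:36032702-36032951 (minus strand) for H2-T23, chr17:36058372-36058621 (minus strand) for Gm11127, chr17:35379367-35379616 (plus strand) for H2-Q4, chr1:171018676-171018925 (plus strand) for Fcgr4, chr3:95526536-95526785 (plus strand) for Ctss and chr11:70053874-70054123 (plus strand) for Asgr1. Capitals mark matches on either strand to the ISRE-type motif of interferon-responsive elements (GAAA, any 2 bases, GAAA), or to GGGANTTCC, a form of the NF-kB motif. The first 5 genes were picked for display because a match was found, and Asgr1 holds neither motif. Asgr1 has 2 windows, and both lie inside the span of its gene (chr11:70048909-70057895). The first is shown, and the other, at chr11:70054105-70054354, is not.
H2-T23: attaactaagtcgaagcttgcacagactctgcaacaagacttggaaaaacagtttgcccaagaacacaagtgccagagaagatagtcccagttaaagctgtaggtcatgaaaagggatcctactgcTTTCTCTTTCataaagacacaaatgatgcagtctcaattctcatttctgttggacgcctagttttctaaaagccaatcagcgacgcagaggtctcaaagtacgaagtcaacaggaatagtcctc
Gm11127: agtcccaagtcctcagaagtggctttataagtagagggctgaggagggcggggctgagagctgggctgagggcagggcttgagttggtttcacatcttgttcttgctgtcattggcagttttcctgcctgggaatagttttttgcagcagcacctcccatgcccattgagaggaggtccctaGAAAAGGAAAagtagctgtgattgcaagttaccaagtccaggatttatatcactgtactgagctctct
H2-Q4: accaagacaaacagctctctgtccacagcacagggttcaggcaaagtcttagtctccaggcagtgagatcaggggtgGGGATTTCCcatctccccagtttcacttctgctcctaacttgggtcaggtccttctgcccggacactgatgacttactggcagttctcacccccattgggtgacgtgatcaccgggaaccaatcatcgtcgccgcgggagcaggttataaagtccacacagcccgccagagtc
Fcgr4: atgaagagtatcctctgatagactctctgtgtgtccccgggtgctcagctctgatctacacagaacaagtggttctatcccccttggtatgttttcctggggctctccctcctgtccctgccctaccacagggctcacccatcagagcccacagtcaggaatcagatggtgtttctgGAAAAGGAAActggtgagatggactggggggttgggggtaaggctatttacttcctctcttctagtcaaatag
Ctss: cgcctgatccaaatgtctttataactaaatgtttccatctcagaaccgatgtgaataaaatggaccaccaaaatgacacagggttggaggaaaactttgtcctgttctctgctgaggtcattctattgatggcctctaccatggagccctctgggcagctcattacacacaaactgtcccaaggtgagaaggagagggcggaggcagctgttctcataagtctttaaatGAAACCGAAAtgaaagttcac
Asgr1: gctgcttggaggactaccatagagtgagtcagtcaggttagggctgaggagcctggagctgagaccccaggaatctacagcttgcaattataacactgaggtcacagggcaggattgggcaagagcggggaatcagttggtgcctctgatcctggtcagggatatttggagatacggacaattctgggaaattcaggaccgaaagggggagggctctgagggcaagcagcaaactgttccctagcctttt

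The motif search was run after the expression values were seen, over 15 genes of which 13 had a window, with 11 motifs on both strands. The ISRE-type motif was found in 4 of the 13 genes (H2-T23, Gm11127, Ctss and Fcgr4), and 3.28% of the 14139 genes in the files with a window hold it. GGGANTTCC was found in H2-Q4 alone (2.05% of all), and a palindromic NF-kB consensus in none (0.156%). CACGTG (8.74% of all), TCATGTG (2.72%) and TGACGTCA (2.56%) were found in none of the 13. CCAAT was found in 7 of 13 (39.7% of all), TGANTCA in 3 (6.4%), GAGGAAGT in 2 (2.86%), AGGAAGTG in 1 (3.82%) and TGACGC in 1 (9.96%). AGGAAGTG and GAGGAAGT share letters, as do TGACGTCA and TGACGC. The windows searched without an ISRE-type match were those of H2-Q4, Gm8909, Gpnmb, Ctsk, Trem2, Il18rap, Asgr1, Ms4a7 and Chil3, and H2-Bl and Atp6v0d2 were the other two genes. Over the genes with the smallest p in each direction, the ISRE-type motif was held by 2 of the 12 lower genes with a window and by 0 of the 11 higher ones. Windows extended 50 bases past the start held TCATGTG in Ctss and Ms4a7 as well, and other motifs of the set in Ctss, Ms4a7, H2-Q4 and Gpnmb. A match describes the letters of the window and not a bound site. Only exact matches to the 11 motifs were searched, so a window without a match may hold another form of an element.

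None of the 13735 genes tested passed the edgeR threshold of an adjusted p under 0.05. The smallest adjusted p was 0.689, and percent called was 0 in either direction. Before adjustment, edgeR gave p under 0.05 for 950 genes (6.92%), of which 449 (3.27%) were higher and 501 (3.65%) lower with bLF. DESeq2 called 7 genes (0.051%), and limma on log2(FPKM + 1) called 0. The FPKM of the 3 LPS+bLF libraries did not overlap that of the 3 LPS libraries for 570 genes that were higher (4.15%) and 675 that were lower (4.91%), 1245 in all (9.06%). Fitted log2 fold changes were above 0 for 47.9% of genes and below 0 for 52.1%, with a median of -0.02. Directions below describe the 6 libraries and mean LPS+bLF relative to LPS, and fold changes are log2 values from edgeR.

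MHC class I and class Ib genes were lower as a group: 17 of 19 tested members had a fold change below 0, with a median of -0.44. The libraries did not overlap for 3 members, all lower (15.8% against 4.91% of all genes), and 6 had an unadjusted edgeR p under 0.05 (31.6% against 3.65%). H2-T23 (gene ID 15040, chr17:36029977-36032701, mm10) encodes Qa-1, a nonclassical class I molecule seen by NK receptors. Its levels were 201, 256 and 339 FPKM in the LPS mice and 176, 159 and 153 FPKM in the LPS+bLF mice. Every LPS+bLF library was below every LPS library, at a mean of 163 ± 11.7 FPKM against 265 ± 69.3 FPKM (SD). The fold change was -0.71 (SE 0.18, edgeR adjusted p 0.689).

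H2-Bl (gene ID 14963, chr17:36080110-36084249), a class Ib gene of the same region, was at 35.9, 21.3 and 28.9 FPKM with LPS and at 12.7, 12.9 and 11.8 FPKM with LPS+bLF. The LPS+bLF mice lay close together and below all LPS mice, and the fold change was -1.25 (SE 0.27). Gm11127 (gene ID 100529082, chr17:36055816-36058371), another class I-like gene, was at 7.49, 8.85 and 11.9 FPKM with LPS and at 4.29, 5.44 and 4.47 FPKM with LPS+bLF, a fold change of -0.99 (SE 0.21). DESeq2 gave these genes adjusted p-values of 0.0436 for H2-T23, 0.0492 for H2-Bl and 0.0147 for Gm11127. Control mice were at 10.2, 6.87 and 11.4 FPKM for H2-Bl and at 4.51, 3.96 and 4.89 FPKM for Gm11127.

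For other class I genes the groups overlapped, with LPS mouse 1 low. H2-Q4, a Qa-2 family gene, was at 51.6, 116 and 152 FPKM with LPS and at 66.7, 57.5 and 53.7 FPKM with LPS+bLF. LPS mice 2 and 3 were above all LPS+bLF mice and LPS mouse 1 was below them. The classical genes H2-K1 and H2-D1 and their light chain B2m, named after their values were seen, had the same layout. H2-K1 was at 929, 2606 and 3348 FPKM with LPS and at 1634, 1770 and 1530 FPKM with LPS+bLF. B2m was at 63.7, 614 and 881 FPKM with LPS and at 452, 401 and 291 FPKM with LPS+bLF. Fold changes were -0.81 for H2-Q4, -0.39 for H2-K1, -0.44 for H2-D1 and -0.38 for B2m, and without LPS mouse 3 they were -0.50, -0.08, -0.13 and 0.26. Without LPS mouse 1 those of H2-K1, H2-D1 and B2m were -0.70, -0.70 and -0.88. Without LPS mouse 1 the median of the class I list was -0.72, and without LPS mouse 3 it was -0.28.

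Class I genes of the mouse are near-identical copies, so the authors' counting may split or merge their reads, and BALB/c carries another H2 haplotype than the C57BL/6J reference. Values of single class I genes are uncertain for that reason. The list of peptide loading and immunoproteasome genes, which supply class I molecules with peptides, had 7 of 15 members higher and 8 lower, with a median of -0.00, and no member was lower without overlap. The list of interferon-stimulated genes had 21 of 27 members below 0 and a median of -0.17, with 2 lower without overlap (7.41% against 4.91% of all genes). That median was 0.36 without LPS mouse 3, -0.49 without LPS mouse 1 and -0.27 without LPS+bLF mouse 1. Cxcl10, a chemokine induced by interferon gamma, was at 5.23, 1.56 and 2.43 FPKM with LPS and at 0.46, 0.60 and 0.92 FPKM with LPS+bLF, with no overlap (-2.31, SE 0.77, and -1.50 without LPS mouse 1).

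**Figure D1:**
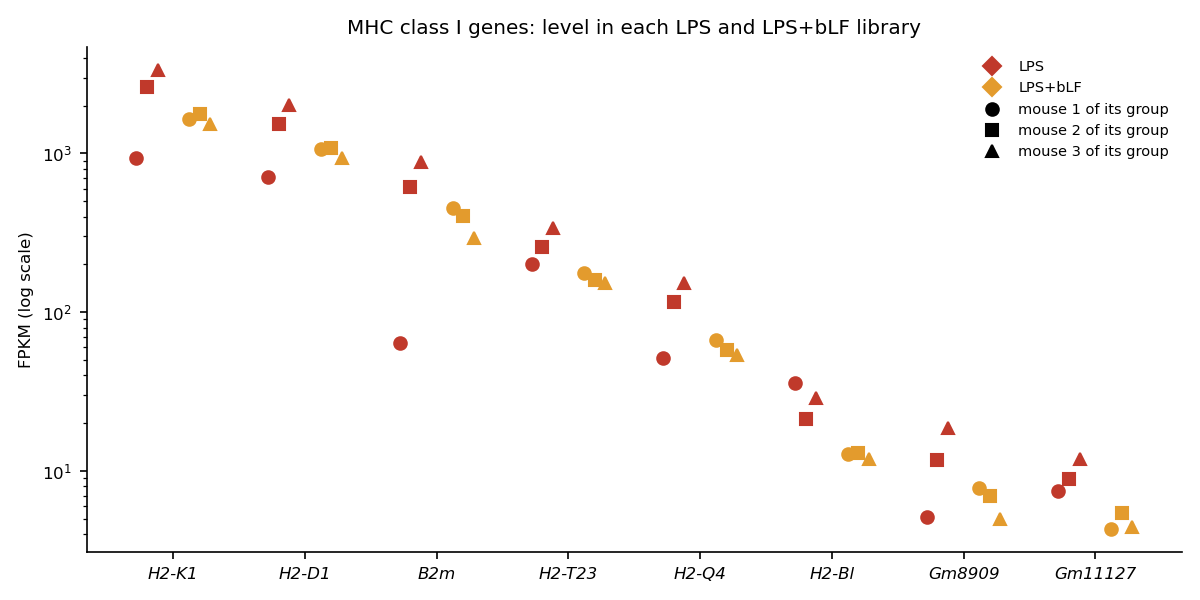
FPKM on a log axis of 8 MHC class I genes in each library, LPS in red and LPS+bLF in orange, with the mouse number as the symbol. H2-T23, H2-Bl and Gm11127 separate in all libraries, while LPS mouse 1 lies below the LPS+bLF mice for H2-K1, H2-D1, B2m and H2-Q4.

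Macrophage genes were lower. In the monocyte and interstitial macrophage list 21 of 24 members were below 0 (median -0.42), 7 without overlap (29.2% against 4.91% of all genes), and in the alveolar macrophage list 14 of 18 were below 0 (median -0.59), 4 without overlap (22.2%). The monocyte and interstitial median was -0.69 without LPS+bLF mouse 2, and the alveolar median was -0.24 without LPS mouse 3. The summed level of the monocyte and interstitial list was 2472 to 3403 FPKM with LPS and 2034 to 3027 FPKM with LPS+bLF, and that of the alveolar list was 904 to 1116 FPKM and 667 to 944 FPKM. No macrophage gene was called by edgeR.

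Fcgr4 (gene ID 246256, chr1:171018926-171029761) encodes the activating Fc gamma receptor IV of monocytes and macrophages. It was at 6.98, 5.25 and 7.40 FPKM with LPS and at 3.18, 2.43 and 2.23 FPKM with LPS+bLF, a fold change of -1.36 (SE 0.32). Ms4a7, a membrane gene of tissue macrophages, was at 5.31, 6.60 and 7.61 FPKM with LPS and at 2.78, 2.55 and 3.61 FPKM with LPS+bLF (-1.13, SE 0.29). The groups did not overlap for either gene, and Ms4a7 in LPS+bLF mice was above the 1.14 to 1.77 FPKM of the control mice. Itgam, the CD11b integrin chain, was at 3.8, 3.68 and 4.53 FPKM with LPS and at 2.35, 2.75 and 1.77 FPKM with LPS+bLF (-0.81, SE 0.24).

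Chil3, the chitinase-like protein Ym1 of alveolar macrophages, was at 177, 94.7 and 116 FPKM with LPS and at 54.2, 42.9 and 41.7 FPKM with LPS+bLF. The lowest LPS mouse exceeded the highest LPS+bLF mouse, and the fold change was -1.55 (SE 0.42, range -1.79 to -1.10 over the fits that left out 1 of the 6 libraries). Bst1, a surface ADP-ribosyl cyclase of myeloid cells, was at 17.2, 15.7 and 14.0 FPKM with LPS and at 9.59, 9.88 and 9.34 FPKM with LPS+bLF (-0.73, SE 0.19). Its 3 LPS+bLF libraries were close together and below all LPS libraries. Bcl2a1b, an anti-apoptotic Bcl2 relative with near-identical copies, was at 33.7, 23.3 and 22.7 FPKM with LPS and at 16.6, 13.5 and 15.1 FPKM with LPS+bLF (-0.89, SE 0.27, and -0.52 without LPS mouse 1).

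Genes of lipid-laden and resorptive macrophages were lower, 15 of 18 members with a median of -0.43 and 3 without overlap (16.7% against 4.91% of all genes). Gpnmb, a transmembrane glycoprotein of phagocytes with high lysosomal load, was at 10.3, 2.51 and 5.52 FPKM with LPS and at 1.42, 0.93 and 0.95 FPKM with LPS+bLF (-2.57, SE 0.55, DESeq2 adjusted p 0.0147). Trem2, a lipid-sensing receptor, was at 54.8, 22.7 and 28.2 FPKM with LPS and at 13.3, 6.30 and 14.8 FPKM with LPS+bLF (-1.72, SE 0.43). LPS mouse 1 was the highest library for both genes, and Trem2 was at -1.06 without it. The median of the list was -0.25 without LPS mouse 1. Atp6v0d2, a subunit of the vacuolar proton pump, was at 12.4, 8.89 and 12.7 FPKM with LPS and at 6.98, 4.31 and 4.85 FPKM with LPS+bLF (-1.10, SE 0.29).

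Lysosomal enzymes and cathepsins were below 0 for 22 of 24 members (median -0.37), 7 without overlap (29.2% against 4.91% of all genes). Cathepsin K (Ctsk), a collagen-degrading protease, was at 46.2, 20.8 and 33.0 FPKM with LPS and at 16.1, 9.78 and 11.7 FPKM with LPS+bLF (-1.49, SE 0.34). Cathepsin S (Ctss, gene ID 13040, chr3:95526786-95556405), a protease that cuts the invariant chain during class II antigen presentation, was at 194, 204 and 285 FPKM with LPS and at 153, 121 and 121 FPKM with LPS+bLF (-0.84, SE 0.23). The groups did not overlap for either protease, nor for beta-glucuronidase (Gusb, -0.67, SE 0.22). Cathepsin D (Ctsd) overlapped, and its highest value, 1557 FPKM, was in LPS mouse 1, without which its fold change moved from -1.07 to -0.22. The median of the list was -0.18 without LPS mouse 1.

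**Figure D2:**
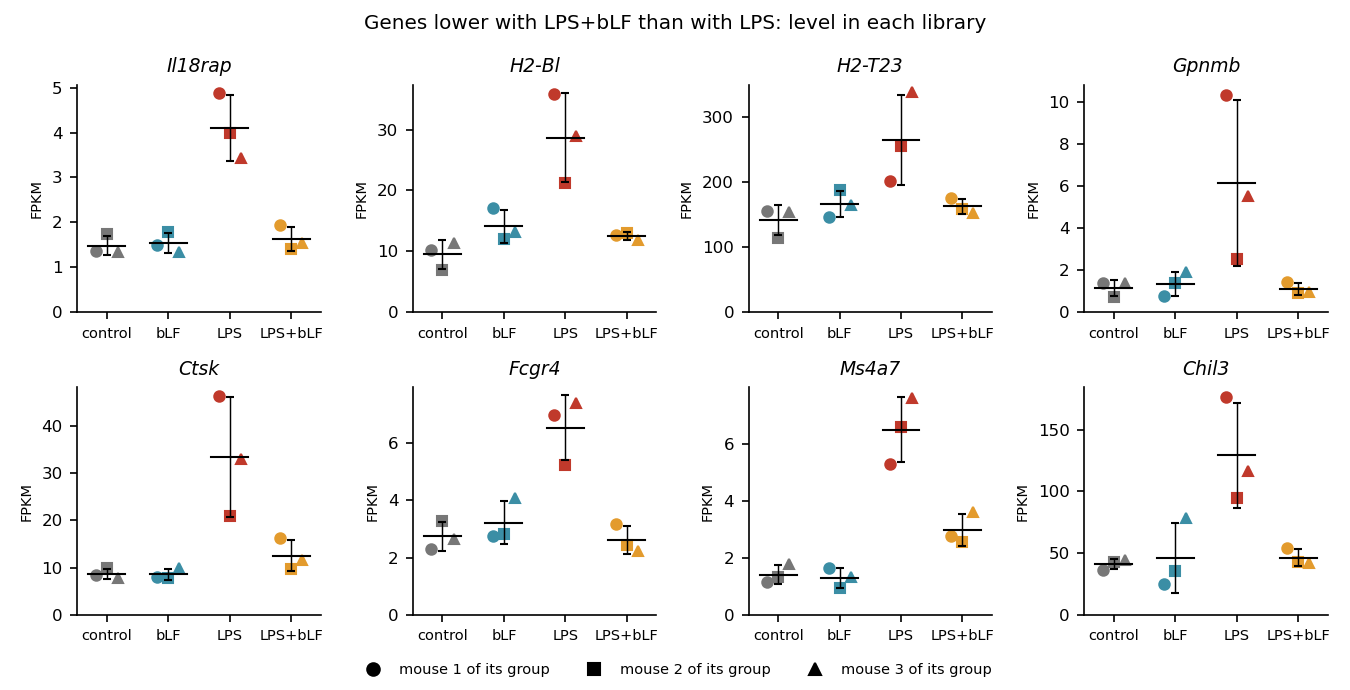
FPKM (linear axis from 0) of 8 genes that were lower with LPS+bLF than with LPS, by group, with the mouse number as the symbol, the mean as a bar and the SD as a whisker. In each panel the 3 LPS+bLF libraries lie below the 3 LPS libraries.

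Receptors of innate recognition had the same direction. The lists share members, so their counts are not independent. Fcgr4 is in the monocyte and Fc receptor lists, and Itgam is in the monocyte and complement lists. Clec4n is in the Fc receptor and C-type lectin lists, and Ctsd is in the lipid-laden macrophage and lysosomal lists. Of the Fc gamma receptor and adaptor genes 20 of 22 were below 0 (median -0.38), 6 without overlap (27.3% against 4.91% of all genes). The inhibitory receptor Fcgr2b was at 14.4, 18.4 and 22.2 FPKM with LPS and at 13.1, 11.4 and 9.61 FPKM with LPS+bLF (-0.70, SE 0.25). Of the C-type lectins 12 of 17 were below 0 (median -0.37, and -0.09 without LPS mouse 3), 6 of them lower without overlap (35.3%) and 2 higher without overlap (11.8% against 4.15%). Clec4d, Clec4e and Clec4n (Dectin-2) are neighbouring genes of chromosome 6 whose products bind fungal and mycobacterial glycans. Clec4d was at 21.1, 4.94 and 8.43 FPKM with LPS and at 3.60, 3.08 and 3.18 FPKM with LPS+bLF (-1.93, SE 0.55). Fold changes were -1.52 (SE 0.58) for Clec4e and -1.0 (SE 0.31) for Clec4n, and neither gene's groups overlapped. Clec4e was low, at 0.81, 0.54 and 0.89 FPKM with LPS and at 0.30, 0.25 and 0.25 FPKM with LPS+bLF. Without LPS mouse 1 the values were -0.94 for Clec4d and -0.52 for Clec4n.

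Complement genes were below 0 for 16 of 22 members (median -0.36), 4 without overlap (18.2% against 4.91% of all genes). The median was -0.23 without LPS+bLF mouse 3 and -0.57 without LPS+bLF mouse 2. The summed level of the list was 7931 FPKM in LPS+bLF mouse 2 and 562 to 942 FPKM in the other 5 libraries. The mean log2(FPKM + 1) level of its members, relative to control mice, was 0.64 in that mouse and -0.24 to 0.40 in the other 5. Cfd is in both the complement and the fat list, and that mouse carried fat transcripts. The part of Cfd in these levels was not tested. Both anaphylatoxin receptors were among the genes below 0. C3ar1 was at 0.79, 1.16 and 0.99 FPKM with LPS and at 0.50, 0.58 and 0.40 FPKM with LPS+bLF (-0.98, SE 0.28), and the fold change of C5ar1 was -1.23 (SE 0.47).

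The genes that handle LPS itself were below 0 for 15 of 19 members, with a median of -0.18, and 2 did not overlap (10.5% against 4.91% of all genes). The median was -0.07 without LPS mouse 3. Cd14, the LPS co-receptor, was at 16.6, 15.4 and 24.9 FPKM with LPS and at 11.2, 9.64 and 6.49 FPKM with LPS+bLF (-1.08, SE 0.34). Aoah, the enzyme that inactivates LPS by removing acyl chains, was at 1.08, 0.99 and 0.97 FPKM with LPS and at 0.37, 0.53 and 0.39 FPKM with LPS+bLF (-1.49, SE 0.43). Both were lower in every LPS+bLF mouse. The receptor Tlr4 (-0.32, SE 0.24) and the LPS-binding protein Lbp (-0.57, SE 0.34) overlapped between the groups. Without LPS mouse 1 the value of Tlr4 was -0.06, and without LPS mouse 3 that of Lbp was -0.34.

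NK and cytotoxic lymphocyte genes were below 0 for all 18 tested members, with a median of -0.74, and 1 did not overlap (5.56%, near the 4.91% of all genes). That gene was Il18rap (gene ID 16174, chr1:40515362-40551707), a chain of the interleukin-18 receptor. It was at 4.89, 4.00 and 3.43 FPKM with LPS and at 1.93, 1.41 and 1.55 FPKM with LPS+bLF, a fold change of -1.38 (SE 0.26, DESeq2 adjusted p 0.0147). Control mice were at 1.37, 1.73 and 1.35 FPKM. Il18rap was highest in LPS mouse 1, the mouse with the lowest summed level of the list. Klra3 and Serpinb9b, given next, are not members of the list. Klra3, an NK receptor of the Ly49 family with similar copies, was at 9.45, 11.7 and 7.69 FPKM with LPS and at 4.86, 3.83 and 4.55 FPKM with LPS+bLF (-1.14, SE 0.29). Serpinb9b, a serpin of the granzyme-inhibitor clade, was at 0.96, 2.34 and 1.58 FPKM with LPS and at 0.52, 0.33 and 0.69 FPKM with LPS+bLF (-1.63, SE 0.41).

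LPS mouse 1 was low for most other cytotoxic genes. Granzyme B (Gzmb) was listed at 0 in LPS mouse 1 and at 9.16 and 11.3 FPKM in LPS mice 2 and 3, against 1.2, 0.99 and 0.71 FPKM with LPS+bLF. Granzyme A (Gzma), named after its values were seen, was at 4.80, 158 and 129 FPKM with LPS and at 49.6, 37.9 and 41.0 FPKM with LPS+bLF, and the activating receptor Ncr1 at 0.73, 7.61 and 7.08 FPKM and at 2.78, 1.74 and 1.85 FPKM. Their groups overlapped only through LPS mouse 1. Without LPS mouse 1, edgeR called Gzmb (-3.31) and Gzma (-1.65), both at an adjusted p of 0.0494. These 2 genes were 0.0146% of those tested, and 4.74% of genes were higher and 4.16% lower at an unadjusted edgeR p under 0.05. The median of the list was then -1.23, and it was -0.41 without LPS mouse 2 and -0.42 without LPS mouse 3. Without LPS mouse 2 the fold change of Gzma was -0.62. The summed level of the list was 58.3 FPKM in LPS mouse 1, 647 and 596 FPKM in LPS mice 2 and 3, and 204 to 297 FPKM with LPS+bLF.

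Extracellular matrix genes were below 0 for 25 of 27 members (median -0.56, and -0.34 without LPS mouse 1). Of them, 11 were lower without overlap (40.7% against 4.91% of all genes). The fibroblast list, which also holds Col1a2 and Col3a1, had 7 of 15 members above 0 and 8 below, with 3 lower without overlap (20.0%). Its median was -0.02, which was -0.25 without LPS mouse 1 and 0.09 without LPS mouse 3. Col1a2 and Col3a1 encode chains of the fibrillar collagens I and III. Col1a2 was at 113, 70.4 and 81.0 FPKM with LPS and at 53.8, 46.8 and 41.1 FPKM with LPS+bLF (-0.95, SE 0.26, and -0.58 without LPS mouse 1), and Col3a1 at 45.3, 39.8 and 46.3 FPKM and at 34.2, 23.9 and 19.5 FPKM (-0.79, SE 0.24). Col5a2 had a fold change of -0.93 (SE 0.25). The collagen cross-linking enzyme Lox was at 40.4, 10.2 and 9.99 FPKM with LPS and at 7.80, 4.87 and 6.13 FPKM with LPS+bLF, so its -1.81 (SE 0.56) became -0.59 without LPS mouse 1. The procollagen protease Adamts14 was at 3.58, 2.33 and 2.32 FPKM with LPS and at 1.31, 1.01 and 1.32 FPKM with LPS+bLF (-1.22, SE 0.32). The kinesin Kif13a (-0.51, SE 0.13) and the glycosyltransferase B3gnt7 (-0.90, SE 0.24), were lower without overlap.

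Several other lists were below 0 with LPS mouse 1 and at about 0 or above without it. The neutrophil list had 16 of 17 members below 0 and a median of -0.99, which was 0.25 without LPS mouse 1. The glucocorticoid target list had 16 of 18 below 0 and a median of -0.84, which was -0.01 without it, and the cell cycle list had 22 of 28 below 0 and a median of -0.64, which was 0.07 without it. The acute-phase and antimicrobial list had 12 of 16 below 0 and a median of -0.40, which was 0.39 without it. The medians of the red blood cell list (-0.22) and the circadian clock list (-0.12) were 0.69 and 0.12 without it. Fkbp5, a glucocorticoid-induced chaperone, was at 35.3 FPKM in LPS mouse 1, 2.16 and 1.85 FPKM in LPS mice 2 and 3 and 1.40 to 2.68 FPKM with LPS+bLF. The kinase Sgk1 was lower without overlap, at 26.1, 17.9 and 20.0 FPKM with LPS and 11.9, 10.9 and 13.1 FPKM with LPS+bLF (-0.89, SE 0.25, and -0.57 without LPS mouse 1). Lipocalin 2 (Lcn2), a siderophore-binding protein, was at 512, 277 and 370 FPKM with LPS and at 250, 109 and 129 FPKM with LPS+bLF (-1.34, SE 0.44).

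Asgr1 was the higher gene with the smallest p. It encodes a chain of the asialoglycoprotein receptor, a galactose-binding lectin of hepatocytes and some myeloid cells (gene ID 11889, chr11:70048909-70057895). Its levels were 1.87, 1.59 and 2.05 FPKM in the LPS mice and 4.71, 5.90 and 7.17 FPKM in the LPS+bLF mice, a mean of 1.84 ± 0.23 against 5.93 ± 1.23 FPKM (SD). The fold change was 1.66 (SE 0.34, DESeq2 adjusted p 0.0303), and it was 1.51 to 1.82 when 1 of the 6 libraries was left out. Control mice were at 5.81, 8.81 and 5.31 FPKM and bLF-alone mice at 7.12, 4.40 and 6.13 FPKM, so the LPS mice were the low group of the 4. Its partner chain Asgr2 was at 0.53, 5.35 and 2.23 FPKM with LPS and at 5.81, 1.44 and 5.86 FPKM with LPS+bLF, with overlap (0.74, SE 0.64).

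Zmat5, a protein of the minor spliceosome, was at 73.3, 94.9 and 91.1 FPKM with LPS and at 119, 131 and 170 FPKM with LPS+bLF (0.68, SE 0.16). Ino80b, a subunit of the INO80 chromatin remodeller, was at 53.8, 74.0 and 69.8 FPKM with LPS and at 88.8, 82.0 and 95.5 FPKM with LPS+bLF (0.43, SE 0.12, DESeq2 adjusted p 0.0436). Gnaz, a G-protein alpha subunit, was at 0.56, 1.0 and 0.88 FPKM with LPS and at 1.49, 1.51 and 1.78 FPKM with LPS+bLF (0.99, SE 0.25). In all 3 genes LPS mouse 1 was the lowest library, and the groups did not overlap.

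A pair of proteins of the mitochondrial ribosome were among them. Mrps18a was at 75.5, 105 and 97.1 FPKM with LPS and at 122, 189 and 167 FPKM with LPS+bLF (0.79, SE 0.21), and Mrpl54 at 68.8, 121 and 108 FPKM and at 140, 167 and 139 FPKM (0.58, SE 0.16). The U3 ribonucleoprotein Rrp9 (0.65, SE 0.17), the arginine methyltransferase Prmt7 (0.48, SE 0.13), the mitochondrial sulfurtransferase Tst (0.98, SE 0.27, and 0.61 without LPS+bLF mouse 2) and the peroxiredoxin-like Prxl2b (0.99, SE 0.26) were also higher without overlap. Serpinb1a, an inhibitor of neutrophil proteases, was at 4.10, 6.93 and 6.70 FPKM with LPS and at 8.27, 13.2 and 10.98 FPKM with LPS+bLF (0.86, SE 0.24).

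**Figure D3:**
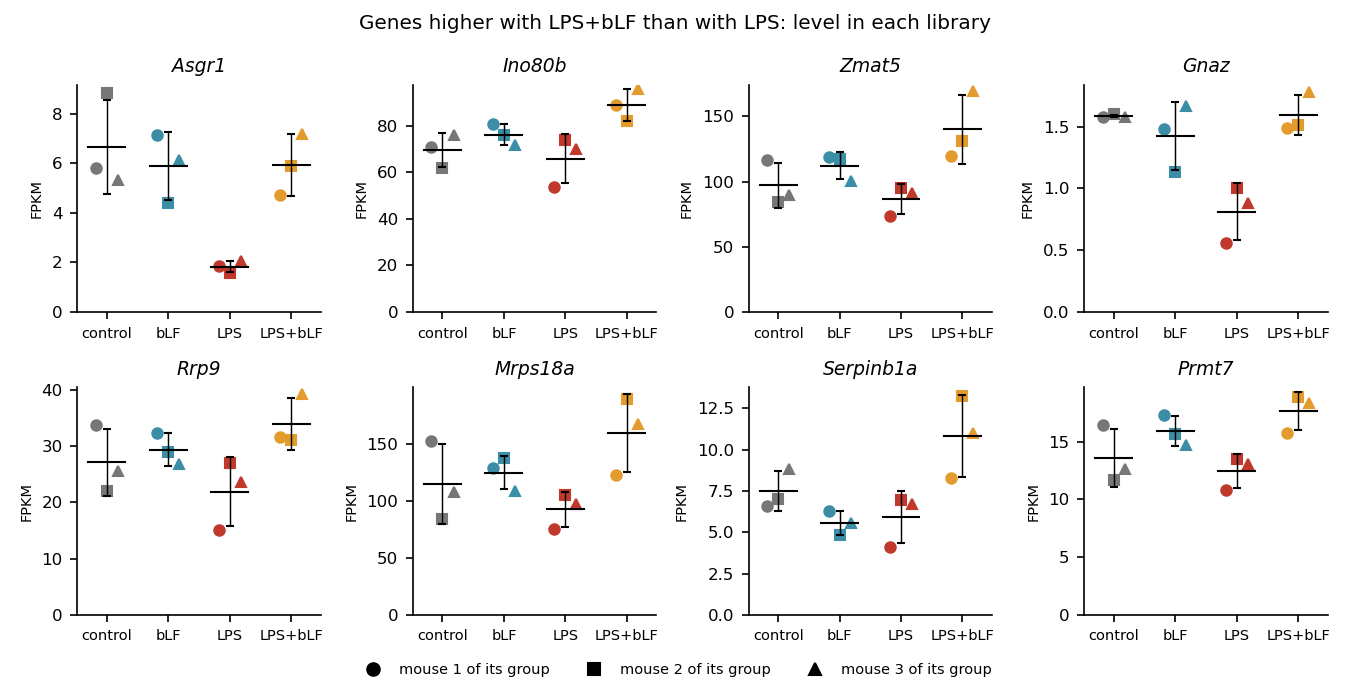
FPKM (linear axis from 0) of 8 genes that were higher with LPS+bLF than with LPS, by group, with the mouse number as the symbol, the mean as a bar and the SD as a whisker. In each panel the 3 LPS+bLF libraries lie above the 3 LPS libraries, and for Asgr1 the LPS mice are the low group.

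Another 4 genes of the rule were higher in all 3 LPS+bLF libraries, with 1 library far above the others or a wide spread. Muscle glycogen phosphorylase (Pygm) was at 147 FPKM and the squamous galectin Lgals7 at 341 FPKM in LPS+bLF mouse 3. That mouse carried muscle and squamous transcripts. LPS+bLF mice 1 and 2 were at 34.6 and 59.3 FPKM for Pygm and at 0.48 and 2.25 FPKM for Lgals7. LPS mice were at 20.6 to 26.1 FPKM for Pygm and at up to 0.33 FPKM for Lgals7, and the fold change of Pygm was 1.77, or 0.99 without LPS+bLF mouse 3. Siglech, a lectin of plasmacytoid dendritic cells, was at 8.28 FPKM in LPS+bLF mouse 2 and at 2.15 and 1.62 FPKM in mice 1 and 3, against 0.30 to 1.0 FPKM with LPS (2.52, and 1.35 without LPS+bLF mouse 2). Hebp2, a heme-binding protein, was at 0.43, 1.22 and 1.15 FPKM with LPS and at 1.52, 2.32 and 4.61 FPKM with LPS+bLF (1.63, SE 0.46, and 1.08 without LPS+bLF mouse 3).

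B cell genes were above 0 for all 15 tested members (median 1.40), 6 without overlap (40.0% against 4.15% of all genes). Cd79a, a signalling chain of the B cell receptor, was at 25.8, 120 and 109 FPKM with LPS and at 182, 447 and 170 FPKM with LPS+bLF (1.72, SE 0.55). LPS mouse 1 was the lowest and LPS+bLF mouse 2 the highest library. The median was 0.92 without LPS mouse 1 and 0.61 without LPS+bLF mouse 2. The summed level of the list was 712 FPKM in LPS mouse 1, 2883 and 3213 FPKM in LPS mice 2 and 3 and 2256 to 2780 FPKM with LPS+bLF. The summed level of T cell genes was also high in LPS+bLF mouse 2, at 130 FPKM against 26.1 to 80.7 FPKM in the other 5 libraries. The thymus and lymph node list was at 30.4 FPKM against 5.87 to 7.65 FPKM. Only 3 of its 10 members were tested, Cd1d1, Cr2 and Cxcl13. Of these, Cr2 is also in the B cell list and Cd1d1 in the class I list. The lymphatic endothelium list summed to 735 FPKM against 234 to 383 FPKM, but its members as a group were not higher. Their mean log2(FPKM + 1) level, relative to control mice, was -0.09 in that mouse and -0.11 to 0.09 in the other 5. The part of these lists in the B cell values was not tested. Cd79b had a fold change of 1.18 (SE 0.36). Without LPS+bLF mouse 2 the values were 1.08 for Cd79a, 0.79 for Cd79b, 1.11 for Cr2 and 0.87 for Ltb. The complement receptor Cr2 of B cells and follicular dendritic cells (2.48, SE 0.74) had its highest level, 3.51 FPKM, in LPS+bLF mouse 2. Lymphotoxin beta (Ltb), a cytokine of lymphocytes, was at 26.0, 79.4 and 72.5 FPKM with LPS and at 98.4, 221 and 116 FPKM with LPS+bLF (1.34, SE 0.38).

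Metabolic lists leaned higher. Oxidative phosphorylation was above 0 for all 26 members, with a median of 0.79, which was 0.10 without LPS+bLF mouse 2, the mouse with fat transcripts, whose summed level over the heart muscle list was 5188 FPKM against 113 to 543 FPKM in the other 5 libraries. Ndufa4, a respiratory chain subunit, was at 456, 580 and 597 FPKM with LPS and at 646, 1774 and 859 FPKM with LPS+bLF (0.98, and 0.40 without LPS+bLF mouse 2). Cholesterol synthesis genes were above 0 for 18 of 21 members (median 0.28, and 0.10 without LPS mouse 1). Of them, 2 were higher without overlap (9.52% against 4.15% of all genes). Squalene synthase (Fdft1) was at 30.1, 30.2 and 18.1 FPKM with LPS and at 34.2, 66.2 and 47.1 FPKM with LPS+bLF (0.90, SE 0.32, and 0.59 without LPS+bLF mouse 2), and the fold change of squalene epoxidase (Sqle) was 0.55 (SE 0.25).

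Cytochrome P450 and related genes were above 0 for 19 of 28 members (median 0.24, and 0.12 without LPS mouse 1, 0.54 without LPS mouse 3). Smooth muscle genes were above 0 for 11 of 15 members (median 0.35, and 0.61 without LPS mouse 1, 0.05 without LPS mouse 3, 0.11 without LPS mouse 2, 0.21 without LPS+bLF mouse 2 and 0.19 without LPS+bLF mouse 3), and the leiomodin Lmod1 was at 1.30, 2.14 and 1.76 FPKM with LPS and 2.60, 2.87 and 2.87 FPKM with LPS+bLF (0.70, SE 0.29).

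**Figure D4:**
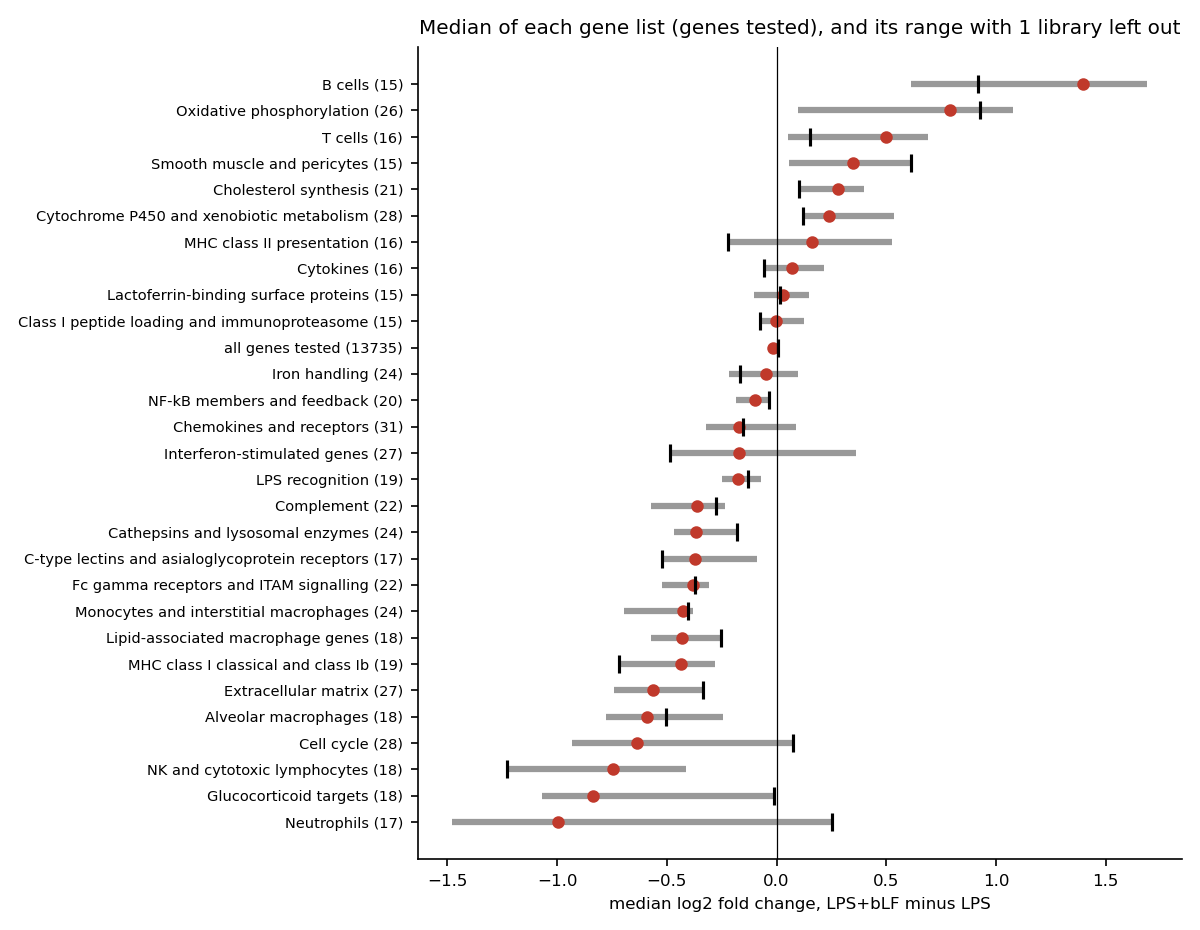
Median log2 fold change (LPS+bLF minus LPS) of the tested members of each gene list, as a red point, with the range of that median when 1 of the 6 libraries was left out as a grey bar and the value without LPS mouse 1 as a black tick. The neutrophil, cell cycle and glucocorticoid lists lie at -0.01 or above without LPS mouse 1, and the macrophage, Fc receptor, class I, matrix and NK lists stay below 0 under each omission.

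The list of lactoferrin-binding surface proteins, which also holds Lrpap1 and the transferrin receptor gene, was spread around 0. Of its members 8 of 15 were above 0, with a median of 0.03, which was -0.10 without LPS mouse 3 and 0.15 without LPS+bLF mouse 2. Intelectin 1 (Itln1) was at 5.53, 2.90 and 2.64 FPKM with LPS and at 2.31, 1.26 and 2.25 FPKM with LPS+bLF, without overlap (-1.01, SE 0.51, and -0.42 without LPS mouse 1). LRP1 (Lrp1, -0.33, SE 0.19), nucleolin (Ncl, -0.62, SE 0.37, and 0.10 without LPS mouse 1) and the transferrin receptor (Tfrc, 0.26, SE 0.28) overlapped between the groups. The mouse gene of lactoferrin itself (Ltf) was at 60.1, 5.78 and 2.58 FPKM with LPS and at 2.94, 6.27 and 3.55 FPKM with LPS+bLF. Its -2.59 (SE 1.52) was 0.16 without LPS mouse 1. Iron handling genes had a median of -0.05, which was 0.10 without LPS mouse 3 and -0.22 without LPS+bLF mouse 2.

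Tnf and Il1b overlapped between the groups. Tnf was at 0.09, 1.28 and 1.95 FPKM with LPS and at 1.12, 1.33 and 0.78 FPKM with LPS+bLF, and Il1b at 15.5, 14.5 and 21.1 FPKM and at 12.5, 14.0 and 14.7 FPKM. The fold changes were 0.05 (SE 0.72) for Tnf, which was -0.47 without LPS mouse 1, and -0.34 (SE 0.42) for Il1b. Il6 was below the expression filter and not tested, with at most 1.46 FPKM in the 6 libraries. The acute-phase gene Saa3 was at 3021, 36.3 and 30.4 FPKM with LPS and at 21.2, 236 and 54.4 FPKM with LPS+bLF. The cytokine list had 10 of 16 members above 0 and a median of 0.07, which was -0.06 without LPS mouse 1 and 0.22 without LPS mouse 3. Its 1 member that did not overlap (6.25% against 4.15% of all genes) was Ltb, given with the B cell genes.

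bLF was also given without LPS, and that comparison shares no library with the one above, although both come from a single fit. The summed level of the fat list was 14564 FPKM in control mouse 1 and 7552 FPKM in bLF-alone mouse 1. The other control and bLF-alone mice were at 125 to 279 FPKM. The summed level of the heart muscle list was 6064 FPKM in bLF-alone mouse 1 and 121 to 1285 FPKM in the others. Their part in the bLF-alone values was not tested. edgeR called 0 genes for bLF against control, 189 (1.38%) passed 0.05 before adjustment, of which 98 (0.714%) were above 0 and 91 (0.663%) below, and the smallest adjusted p was 1. The rule named 15 genes per direction, and without Lgals7 these 29 genes had fold changes of -0.47 to 0.64 with bLF alone. Of the 29, 1 had an unadjusted edgeR p under 0.05, H2-Bl, which was higher with bLF alone (0.60, adjusted p 1) and lower with bLF beside LPS (-1.25). H2-Bl was at 10.2, 6.87 and 11.4 FPKM in control mice and at 17.1, 12.0 and 13.1 FPKM in bLF-alone mice. The genes were chosen for their difference beside LPS, so the contrast between both comparisons is partly set by that choice.

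The test of the difference between both bLF effects, over all genes, called 0 genes with edgeR (percent called 0, 384 genes or 2.8% at an unadjusted p under 0.05, of which 173 or 1.26% were above 0 and 211 or 1.54% below, smallest adjusted p 1). DESeq2 called 1 gene in it, Gm10499. The list medians with bLF alone were 0.10 for monocytes and interstitial macrophages, -0.07 for alveolar macrophages, 0.04 for lysosomal enzymes, 0.27 for class I genes, 0.13 for NK genes, -0.08 for matrix genes and -0.13 for B cells, against a median of -0.03 over all genes. Some other lists described above were further from 0 with bLF alone. Their medians were 0.41 for cell cycle genes, 0.35 for glucocorticoid targets and 0.31 for red blood cells. Those of smooth muscle and of acute-phase genes were -0.40 and -0.39.

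**Figure D5:**
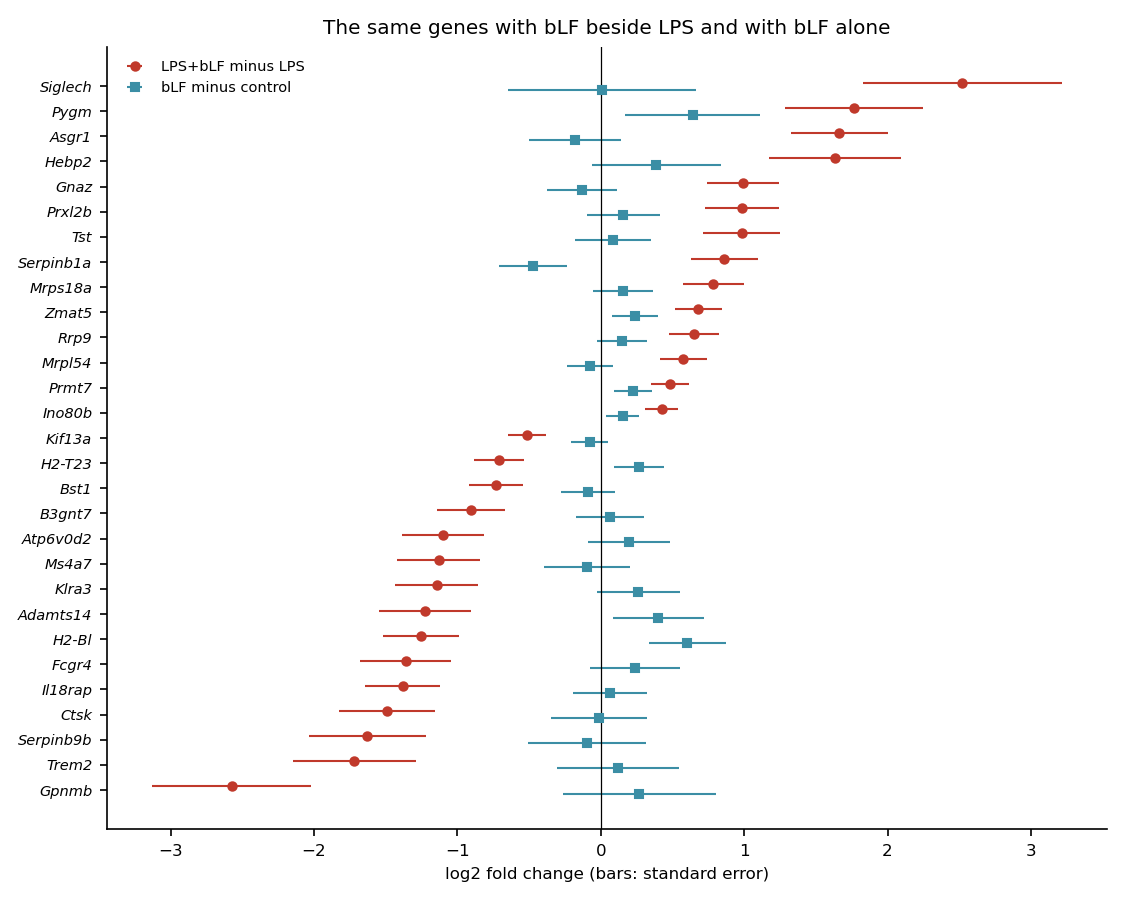
Log2 fold changes with SE of the 29 genes named for the smallest p, for LPS+bLF minus LPS (red) and for bLF minus control (blue). The bLF-alone values run from -0.47 to 0.64, and the genes were chosen on the red values.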

How the data were processed

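Polyadenylated RNA of mouse lung was sequenced, 1 library per mouse. HISAT2 2.1.0, RSEM 1.2.8 and mm10 are named in the submitters' processing notes, without roles; strandedness, annotation and filters are not given in the sources used here. The deposited files hold expected counts and FPKM for 17920 genes, per the file headers and values. Counts were rounded. Genes at 0.5 FPKM or more in 3 or more of 12 libraries were kept (13735). The main test was edgeR 4.0.16 (quasi-likelihood, TMM, R 4.3.3) on all 12 libraries with 4 group means and 8 residual degrees of freedom, with Benjamini-Hochberg adjustment. DESeq2 1.42.0 and limma 3.58.1 were alternatives, and the scripts were tested on simulated data. A count of 0 allows up to 3 counts, or 0.168 to 0.18 CPM, for counting error only. Named genes were those called by any tool, the 15 with the smallest p per direction among non-overlapping genes with a mean of at least 1 FPKM outside other-tissue lists, up to 4 per list, and a fixed set; 1 of them is not reported here. The comparison, lists and genes were chosen with earlier results of these data known. Coordinates are from RefSeq GRCm38.p6. The labels give separate mice. The edgeR p-values set each difference against the spread between mice within the 4 groups, an estimate that also draws on other genes.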

Additional observations from a re-analysis of the deposited data

How the results depend on the processing

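The edgeR count of 0 genes held under RLE and upper-quartile scaling, robust fitting, both expression filters, both limma pseudocounts, the 6 libraries alone and the replicate block, and moved to 7 under DESeq2. Adding a minimum fold change to a count of 0 tests nothing. Leaving out 1 of the 12 libraries gave 0 to 2 genes, the 2 (Gzma and Gzmb) without LPS mouse 1. The count for the difference between the bLF effects was 0, and 1 under DESeq2. The replicate block gave 0 and 0 genes, and the deviations of same-numbered LPS and LPS+bLF mice correlated at -0.29, -0.12 and -0.27, so the numbers were not taken to pair mice. Of 1245 genes without overlap, 811 were left at a mean of at least 5 FPKM, where fewer genes are tested, and 1740 to 4603 genes did not overlap when 1 of the 6 libraries was left out, where fewer libraries have to separate. Fold changes changed sign for 9 of the genes named. B2m was 0.20 and 0.21 with limma at pseudocounts of 1 and 0.1, and Tnf was -0.014 with upper-quartile scaling. When 1 library was left out, values ran from -0.88 (LPS mouse 1) to 0.26 (LPS mouse 3) for B2m, -3.47 to 0.12 (LPS mouse 1) for Fkbp5, -3.19 to 0.16 (LPS mouse 1) for Ltf, -0.47 (LPS mouse 1) to 0.77 for Tnf, -5.08 to 1.77 (LPS mouse 1) for Saa3, -0.94 to 0.10 (LPS mouse 1) for Ncl, -0.0062 (LPS mouse 1) to 0.72 for Tfrc, -0.60 to 0.069 (LPS mouse 3) for Sftpc and -0.040 (LPS mouse 1) to 1.0 for Scgb1a1, where the mouse left out is in brackets; Tnf was -0.17 without LPS+bLF mouse 2 and Scgb1a1 -0.03 without LPS mouse 2. The other 75 of 84 genes kept their sign in every alternative that gave them a value. The cause was not tested.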

Other observations

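Of the mesothelium list, 4 genes were tested, all below 0 with a median of -2.31, and none separated the groups. The median was -1.47 without LPS mouse 1, where 1 of the 4 was above 0, and -2.91 without LPS+bLF mouse 2. Mesothelin (Msln), a surface protein of the pleural lining, was at 74.7, 27.1 and 2.48 FPKM with LPS and at 4.18, 4.27 and 0.65 FPKM with LPS+bLF, and bLF-alone mouse 1 was at 25.8 FPKM.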
